A study of Mus musculus with 12 samples.

Results

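The 9 genes described here, Mbp, Mog, Mag, Mobp, Cnp, Cldn11, Ugt8a, Aspa and Mal, encode proteins and enzymes of myelin and of the mature oligodendrocyte. They were taken from a named list, each through its probe set with the highest mean over all arrays, and are 9 of the 12393 genes on the array that had a gene symbol. Expression was measured in striatum, on 1 Affymetrix array for each of 12 C57Bl/6 mice. The groups were 3 TIF-IA mutants made with D1R-Cre and 3 controls at 13 weeks of age, and 3 such mutants and 3 controls at 9 weeks. The labels do not say whether the controls carried D1R-Cre or an altered TIF-IA allele. The design text mentions both 3 mice and 5 arrays for each condition, and 12 arrays were analysed. The study asked how gene expression in the mutants relates to the survival and death of the neurons concerned.

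Rrn3 encodes TIF-IA, which RNA polymerase I needs to transcribe ribosomal RNA genes. D1R-Cre acts in neurons that express the D1 dopamine receptor, so oligodendrocytes are not the cells in which the gene was targeted. The labels give medium spiny neurons, which send the striatum's output, as the cell type, but all 9 oligodendrocyte genes lay above the filter on low values on all 12 arrays, and so did the astrocyte and microglia markers given further on. The arrays therefore held RNA of several cell types, and for every result here, fewer cells of a type and less RNA per cell cannot be told apart.

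Oligodendrocytes wrap axons in many layers of plasma membrane, the myelin sheath. Mbp joins the cytoplasmic faces of these layers and Mobp lies in the same compact myelin. Mal is a membrane protein of lipid rafts, and Cldn11 forms the tight junctions between the layers. Mag, on the membrane next to the axon, takes part in the contact between glia and axon, and Mog sits on the outermost surface of the sheath. Cnp is an enzyme of the cytoplasmic channels of non-compact myelin, Ugt8a makes galactosylceramide, the main glycolipid of myelin, and Aspa releases acetate from N-acetylaspartate in oligodendrocytes.

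The promoters of Cldn11 and Ugt8a are printed because these were the 2 members that passed the test between mutants and controls at 13 weeks. The sequences are RefSeq's, on build GRCm38.p6, and each has 300 bases, from 250 before to 50 after the gene's annotated start. Capitals mark the GC box GGGCGG and the CCAAT box CCAAT, searched on both strands, so that ATTGG is a CCAAT box on the opposite strand. The Cldn11 promoter is chr3:31149670-31149969 on the plus strand and that of Ugt8a is chr3:125938603-125938902 on the minus strand.
Cldn11: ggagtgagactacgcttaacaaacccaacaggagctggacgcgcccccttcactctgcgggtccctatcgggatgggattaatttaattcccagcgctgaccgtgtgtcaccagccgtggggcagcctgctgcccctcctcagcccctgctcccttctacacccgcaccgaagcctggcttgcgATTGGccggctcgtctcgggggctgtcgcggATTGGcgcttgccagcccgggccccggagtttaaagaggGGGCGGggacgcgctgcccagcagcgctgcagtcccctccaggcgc
Ugt8a: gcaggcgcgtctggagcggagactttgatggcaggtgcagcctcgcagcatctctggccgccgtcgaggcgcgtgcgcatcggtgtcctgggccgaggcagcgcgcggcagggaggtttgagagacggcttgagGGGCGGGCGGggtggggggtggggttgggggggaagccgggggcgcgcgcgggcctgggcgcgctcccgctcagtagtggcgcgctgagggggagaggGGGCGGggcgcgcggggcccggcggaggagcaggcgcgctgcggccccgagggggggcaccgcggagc

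The Cldn11 window held 1 GC box and 2 CCAAT boxes, and the Ugt8a window held 3 GC boxes, 2 of which overlap, and no CCAAT box. Neither window held ACAANG, the core of the motif of Sox factors such as Sox10. Of the 8 members whose promoter was in the table, GGGCGG was in 3 (Cldn11, Cnp and Ugt8a), CCAAT in 2 (Aspa and Cldn11) and ACAANG in 4 (Cnp, Mag, Mobp and Mog). Over the 27025 promoters of the table, 35.9% held GGGCGG, 37.9% CCAAT and 41.6% ACAANG. A match is a run of letters and not a shown binding site.

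At 13 weeks, Ugt8a and Cldn11 rose in the mutants, each to nearly 2 times the control level, and the other 7 members did not pass the test. Differences are given on the log2 scale as mutant minus control, and the test is a moderated linear model (limma) over the 8253 genes above the filter, with adjusted p under 0.05 as the threshold. Of the 9 members, 2 were higher in the mutants and 0 were lower, while over all genes tested 23.4% were higher, 21.9% were lower and 45.4% passed in either direction. The share of members called higher was thus near that of all genes, and the share called in either direction was below it. Of the 9 differences, 8 were above 0 and their median was 0.63, beside a median of 0.0033 over all genes. In 4 members (Cnp, Cldn11, Ugt8a and Aspa) the 3 mutants and 3 controls did not overlap, a pattern found in 54.6% of all genes. At 9 weeks the test called 0 members.

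**Figure D1:**
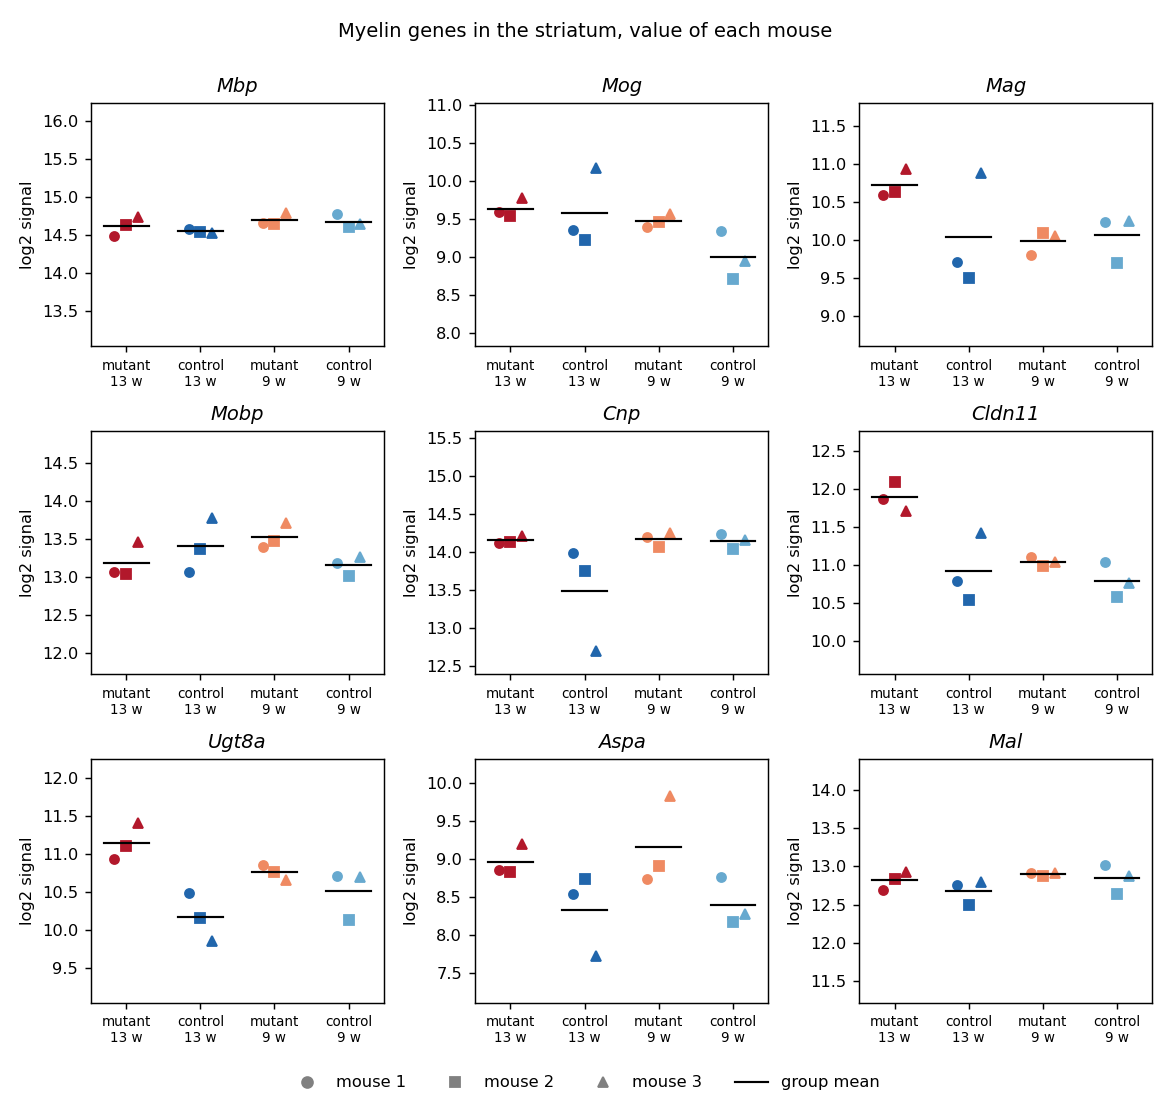
Level of each of the 9 genes (log2, GCRMA) in each mouse, with mutants left of controls at each age. Points are mice and bars are group means. The Cldn11 and Ugt8a points of the 13-week mutants lie above those of the 13-week controls, while the Mbp and Mal points of the groups overlap.

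Ugt8a, the galactosylceramide synthase, measured 10.93, 11.11 and 11.40 (log2) in the 13-week mutants, against 10.49, 10.16 and 9.85 in the 13-week controls. All 3 mutants lay above all 3 controls, and the group means were 11.15 ± 0.24 and 10.17 ± 0.32 (SD, n = 3 mice each). The difference was 0.98 ± 0.21 (SE), or 1.97-fold, with a 95% interval of 0.52 to 1.44 and an adjusted p of 0.00270 in limma. At 9 weeks Ugt8a measured 10.86, 10.76 and 10.65 in mutants, against 10.71, 10.13 and 10.69 in controls. These ranges overlapped, with means of 10.76 ± 0.10 and 10.51 ± 0.33 and a difference of 0.25 ± 0.21 (limma adjusted p = 0.555). Leaving out each mouse in turn gave 13-week differences between 0.82 and 1.14, and the highest adjusted p was 0.0123.

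Cldn11, the tight junction protein of myelin, measured 11.86, 12.09 and 11.70 (log2) in the 13-week mutants, against 10.79, 10.53 and 11.41 in the 13-week controls. The mutants lay above the controls without overlap, and control mouse 3 was the nearest to them. The means were 11.88 ± 0.20 and 10.91 ± 0.45 (SD, n = 3 each), and the difference was 0.97 ± 0.22, or 1.96-fold (95% interval 0.50 to 1.45, limma adjusted p = 0.00336). At 9 weeks the mutants measured 11.10, 10.98 and 11.04, against 11.03, 10.57 and 10.76 in controls, with means of 11.04 ± 0.06 and 10.79 ± 0.23. The highest control lay among the mutants, and the difference of 0.25 ± 0.22 did not pass (95% interval -0.22 to 0.73, adjusted p = 0.555). With each mouse left out in turn the 13-week difference lay between 0.78 and 1.22 and kept passing, with a highest adjusted p of 0.0194.

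Mag, which helps hold the sheath to the axon, measured 10.60, 10.64 and 10.94 (log2) in the 13-week mutants, against 9.72, 9.50 and 10.89 in the 13-week controls. The first 2 controls lay well below the mutants and control mouse 3 lay among them. The difference was 0.69 ± 0.31 (95% interval 0.02 to 1.36, limma adjusted p = 0.0871), on means of 10.73 ± 0.19 and 10.04 ± 0.75. Without control mouse 3 the difference was 1.12 and passed, with an adjusted p of 0.000731, in a fit that called 47.9% of all genes. In the 9-week comparison the mutants measured 9.81, 10.10 and 10.05, against 10.24, 9.70 and 10.25 in controls. The 9-week groups overlapped, and the difference was -0.08 ± 0.31 (adjusted p = 0.927).

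Mog, the outer surface protein of the sheath, measured 9.59, 9.54 and 9.78 (log2) in the 13-week mutants, against 9.36, 9.23 and 10.17 in the 13-week controls. Control mouse 3 was the highest of the 6, and the difference was 0.05 ± 0.24 (95% interval -0.47 to 0.57, limma adjusted p = 0.880). It was 0.34 without control mouse 3 (adjusted p = 0.132). The 9-week mutants measured 9.40, 9.47 and 9.57, against 9.35, 8.72 and 8.95 in controls. All 9-week mutants lay above all 9-week controls, although the difference of 0.47 ± 0.24 did not pass (95% interval -0.05 to 0.995, adjusted p = 0.280).

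Cnp, the enzyme of the cytoplasmic channels, measured 14.12, 14.13 and 14.21 (log2) in the 13-week mutants, against 13.99, 13.75 and 12.70 in the 13-week controls. The groups did not overlap, and control mouse 3 was the lowest by more than 1 log2. The difference was 0.67 ± 0.26 (95% interval 0.10 to 1.25, limma adjusted p = 0.0550), on means of 14.15 ± 0.05 and 13.48 ± 0.69. It was 0.28 without control mouse 3 (adjusted p = 0.0850), and passed without control mouse 1 (0.93, adjusted p = 0.0116) or control mouse 2 (0.81, adjusted p = 0.0438). The 9-week mutants measured 14.20, 14.07 and 14.25, against 14.23, 14.04 and 14.16 in controls. These overlapped, and the difference was 0.03 ± 0.26 (adjusted p = 0.972).

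Aspa, which breaks down N-acetylaspartate, measured 8.85, 8.83 and 9.20 (log2) in the 13-week mutants, against 8.54, 8.73 and 7.72 in the 13-week controls. The mutants lay above the controls, again with control mouse 3 lowest, and the difference of 0.63 ± 0.32 did not pass (95% interval -0.07 to 1.33, limma adjusted p = 0.128). It was 0.32 without that mouse. At 9 weeks the mutants measured 8.73, 8.91 and 9.83, against 8.76, 8.17 and 8.27 in controls. Mutant mouse 3 was far above the rest, 1 control lay among the mutants, and the difference was 0.76 ± 0.32 (95% interval 0.06 to 1.46, adjusted p = 0.200). Without mutant mouse 3 it was 0.42 (adjusted p = 0.481).

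Mobp, of compact myelin, measured 13.06, 13.03 and 13.45 (log2) in the 13-week mutants, against 13.06, 13.36 and 13.77 in the 13-week controls. It was the only member with a mean below that of the controls at 13 weeks, by -0.22 ± 0.20 (95% interval -0.65 to 0.21, limma adjusted p = 0.390), and the groups overlapped. The difference was -0.03 without control mouse 3. The 9-week mutants measured 13.39, 13.47 and 13.71, against 13.18, 13.01 and 13.26 in controls. There all mutants lay above all controls, but the difference of 0.37 ± 0.20 did not pass (95% interval -0.06 to 0.80, adjusted p = 0.302).

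Mbp, the basic protein that compacts the sheath, measured 14.48, 14.63 and 14.73 (log2) in the 13-week mutants, against 14.57, 14.54 and 14.53 in the 13-week controls. The groups overlapped, with a difference of 0.07 ± 0.13 (95% interval -0.22 to 0.35, limma adjusted p = 0.698). At 9 weeks the mutants measured 14.65, 14.64 and 14.79, against 14.78, 14.60 and 14.64 in controls, a difference of 0.02 ± 0.13 (adjusted p = 0.959). These values were near the top of the array's scale, where differences can be understated.

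Mal, the raft protein, measured 12.69, 12.83 and 12.93 (log2) in the 13-week mutants, against 12.75, 12.50 and 12.79 in the 13-week controls. The groups overlapped, and the difference was 0.14 ± 0.15 (95% interval -0.19 to 0.46, limma adjusted p = 0.472). The 9-week mutants measured 12.91, 12.88 and 12.91, against 13.02, 12.64 and 12.88 in controls, and differed by 0.05 ± 0.15 (adjusted p = 0.887). The intervals for Mbp and Mal at 13 weeks lay below the differences measured for Ugt8a and Cldn11.

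**Figure D2:**
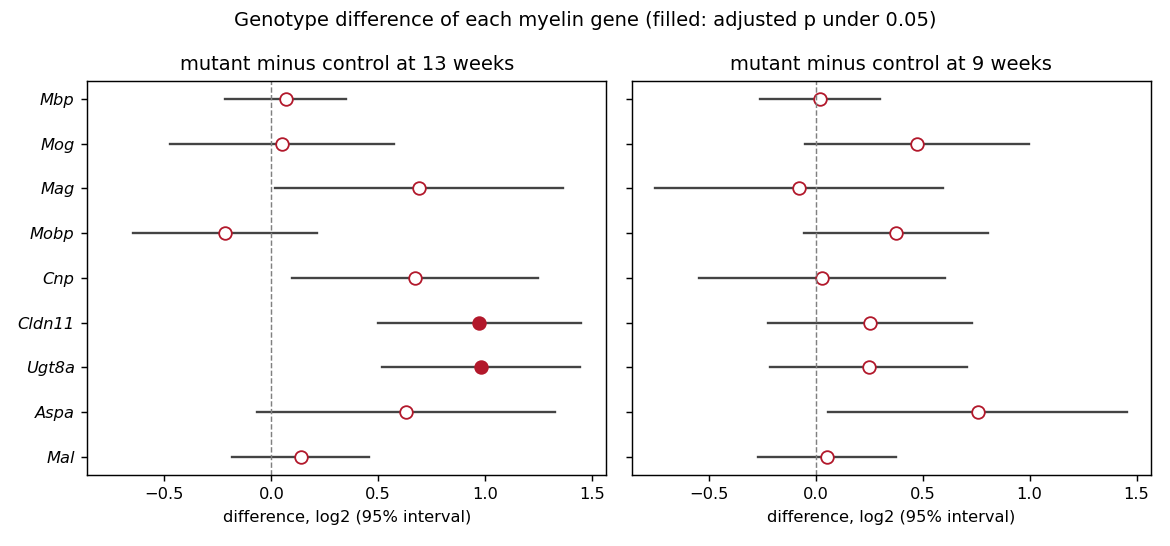
Difference between mutants and controls (log2, mutant minus control) for each of the 9 genes at 13 and at 9 weeks, with 95% intervals from the fit. At 13 weeks the values run from -0.22 for Mobp to 0.98 for Ugt8a, and at 9 weeks from -0.08 for Mag to 0.76 for Aspa.

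At 9 weeks, 8 of the 9 differences were above 0 with a median of 0.25, beside -0.02 over all genes. In limma, 2.02% of all genes were higher and 2.98% lower, while 0 of 9 members passed and 1 member (Aspa) had an unadjusted p under 0.05. Weighting the arrays by their quality called 2 members (Mog and Aspa) at this age, with 33.4% of all genes. The groups did not overlap in 2 members (Mog and Mobp), against 35.5% of all genes. Centring each array on its median took the median 13-week difference of all genes to -0.13, and Mbp and Mog, at -0.07 and -0.08, then lay below 0, while Ugt8a and Cldn11 still passed.

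Whether the mutant effect differed between the ages was tested by the interaction, the difference at 13 weeks minus that at 9 weeks. It was 0.73 ± 0.30 for Ugt8a (limma adjusted p = 0.115), 0.72 ± 0.31 for Cldn11 (adjusted p = 0.130), 0.77 ± 0.44 for Mag (adjusted p = 0.255) and -0.59 ± 0.28 for Mobp (adjusted p = 0.170). None of the 9 members passed, beside 18.4% of all genes, and 2 members had an unadjusted p under 0.05. Without control mouse 3 at 13 weeks the interaction passed for Cldn11 (0.97, adjusted p = 0.0103) and for Mag (1.19, adjusted p = 0.00718), beside 23.6% of all genes, and quality weights called 3 members, beside 40.5% of all genes. The effects of Ugt8a at the 2 ages are thus not shown to differ, and for Cldn11 and Mag this call turns on 1 control mouse.

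Between 9 and 13 weeks, Cldn11 rose in the mutants by 0.84 ± 0.22, or 1.79-fold (95% interval 0.37 to 1.32, limma adjusted p = 0.0109). It was the only member to pass, while 16.1% of all genes were higher at 13 weeks in the mutants and 32.7% passed in either direction. The call was lost without 13-week mutant mouse 2 (0.74, adjusted p = 0.0532). Mag differed by 0.74 between the mutants' ages, with an adjusted p of 0.0865. Without control mouse 3 at 13 weeks the difference stayed at 0.74 and passed (adjusted p = 0.00494). That mouse enters this comparison only through the spread that the groups share. Ugt8a differed by 0.39 (adjusted p = 0.183). The median over the members was -0.02, beside -0.10 over all genes. In the controls, 0 of 9 members and 0.145% of all genes passed in limma, the members' median was -0.07 beside -0.08 over all genes, and 2 members (Mog and Cnp) had an unadjusted p under 0.05. Cldn11 differed there by 0.12 (adjusted p = 0.804) and Ugt8a by -0.34 (adjusted p = 0.419).

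Control mouse 3 at 13 weeks stood apart from the other arrays. The array's control probe set for the 3′ end of 18S ribosomal RNA read 8.85 (log2) in it and 4.32 to 5.89 in 10 of the other arrays, with 8.29 in control mouse 3 at 9 weeks. The difference between the 3′ and 5′ probe sets of actin was 0.82 (log2) in it and 1.05 to 1.96 in the others. This mouse was also the only one of the 3 controls at 13 weeks with the Xist signal of a female, whereas all 3 mutants at 13 weeks had it. Sex and genotype thus overlapped in part at 13 weeks. Markers of neighbouring regions set other arrays apart. Slc17a6, the glutamate transporter of thalamic neurons, read 7.99 (log2) in 9-week mutant mouse 3 and 7.08 in 13-week control mouse 1, and at most 4.44 in the others. Calb2, the calcium-binding protein calretinin, read 7.74 and 8.0 in the same mice and at most 5.01 in the others. Of 6 markers of thalamus and pallidum above the filter, 0 passed in limma at either age and 0 had an unadjusted p under 0.05. Their part in the members' values was not tested. With a term for sex in the fit, 4 members passed at 13 weeks, beside 46.5% of all genes. These were Ugt8a, Cldn11, Cnp and Aspa (1.02, adjusted p = 0.0176), but Cldn11 no longer passed between the mutants' ages (0.67, adjusted p = 0.0549). For Cnp and Aspa, control mouse 3, the only female control at 13 weeks, was the lowest control. Without it, and with no sex term, their 13-week differences were 0.28 and 0.325. No fit with the sex term left this mouse out, so whether the 2 calls gained with that term depend on it was not tested. The targeted gene, Rrn3, measured 7.72, 7.58 and 7.18 (log2) in the 13-week mutants, against 7.96, 7.54 and 8.04 in controls, which overlapped (-0.35 ± 0.18, adjusted p = 0.128). At 9 weeks it was lower in the mutants, with 6.90, 6.96 and 6.91 against 8.0, 7.97 and 8.20 in controls (-1.13 ± 0.18, adjusted p = 0.00747).

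The other probe sets of the members did not always give the same picture. Of the 9 genes, 4 (Mog, Mag, Cldn11 and Aspa) had a single probe set, so Cldn11 has no such check. Ugt8a and Mal had 2 each, Mobp and Cnp had 3 each and Mbp had 8, which makes 22 in all. Each was tested in a fit of all 13087 probe sets above the filter.

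Mbp had a pair of dimmer probe sets that were lower in the 13-week mutants, unlike its brightest one. Probe set 1425264_s_at measured 7.16, 7.04 and 7.43 (log2) in the 13-week mutants, against 8.44, 8.61 and 9.14 in the controls. The groups were far apart, with means of 7.21 ± 0.20 and 8.73 ± 0.37 (SD, n = 3 each) and a difference of -1.52 ± 0.20 (limma adjusted p = 9.22e-05). At 9 weeks it measured 8.20, 8.25 and 7.95 in mutants, against 9.00, 8.74 and 9.01 in controls. All 9-week mutants lay below all controls too, by -0.78 ± 0.20, and the call just missed the threshold (adjusted p = 0.0528). It passed in 2 of the 12 fits that left out 1 mouse, those without control mouse 3 (adjusted p = 0.00887) or control mouse 1 (adjusted p = 0.0488) at 13 weeks, which enter through the shared spread. In the mutants this probe set was lower at 13 than at 9 weeks by -0.92 ± 0.20 (adjusted p = 0.00416), and the interaction was -0.74 ± 0.28 (adjusted p = 0.0964).

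Probe set 1425263_a_at of Mbp measured 2.84, 2.76 and 2.45 (log2) in the 13-week mutants, all below the filter level of 3.51 to 3.81, against 4.28, 4.51 and 3.90 in the controls. The difference was -1.55 ± 0.34 (limma adjusted p = 0.00352) and is close to the low end of what the array measures, since only 6 of the 12 arrays lay above the filter. At 9 weeks it measured 3.90, 3.69 and 3.08 in mutants, against 3.15, 4.29 and 2.83 in controls, and these overlapped (0.13 ± 0.34, adjusted p = 0.882). Its interaction of -1.68 ± 0.49 passed (adjusted p = 0.0343), but in only 3 of the 12 fits that left out 1 mouse. Among all probe sets, 21.7% were lower in the mutants at 13 weeks, 3.60% passed in either direction at 9 weeks and 16.9% passed for the interaction.

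The Mbp locus is known to give rise to several transcripts, among them the Golli transcripts, which are also made in neurons and immune cells. The annotation used here does not say which transcripts each probe set reads. The suffix _s_at marks a probe set whose probes may match transcripts of more than 1 gene, and _a_at one that reads several transcripts of a gene. The other 5 probe sets of Mbp differed between mutants and controls at 13 weeks by -0.03 to 0.21 and at 9 weeks by 0.03 to 0.38, and none passed. At 9 weeks all mutants lay above all controls on 1436201_x_at, 1456228_x_at, 1454651_x_at and 1451961_a_at, but not on 1419646_a_at or the brightest one. Among all genes, read through their brightest probe set, the 9-week groups did not overlap in 35.5%. With the mean of its probe sets in place of the brightest one, Mbp was lower in the 13-week mutants (-0.32, adjusted p = 0.0217). That mean takes in the 2 dimmer probe sets, at -1.52 and -1.55, while the 6 brighter ones ran from -0.03 to 0.21.

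**Figure D3:**
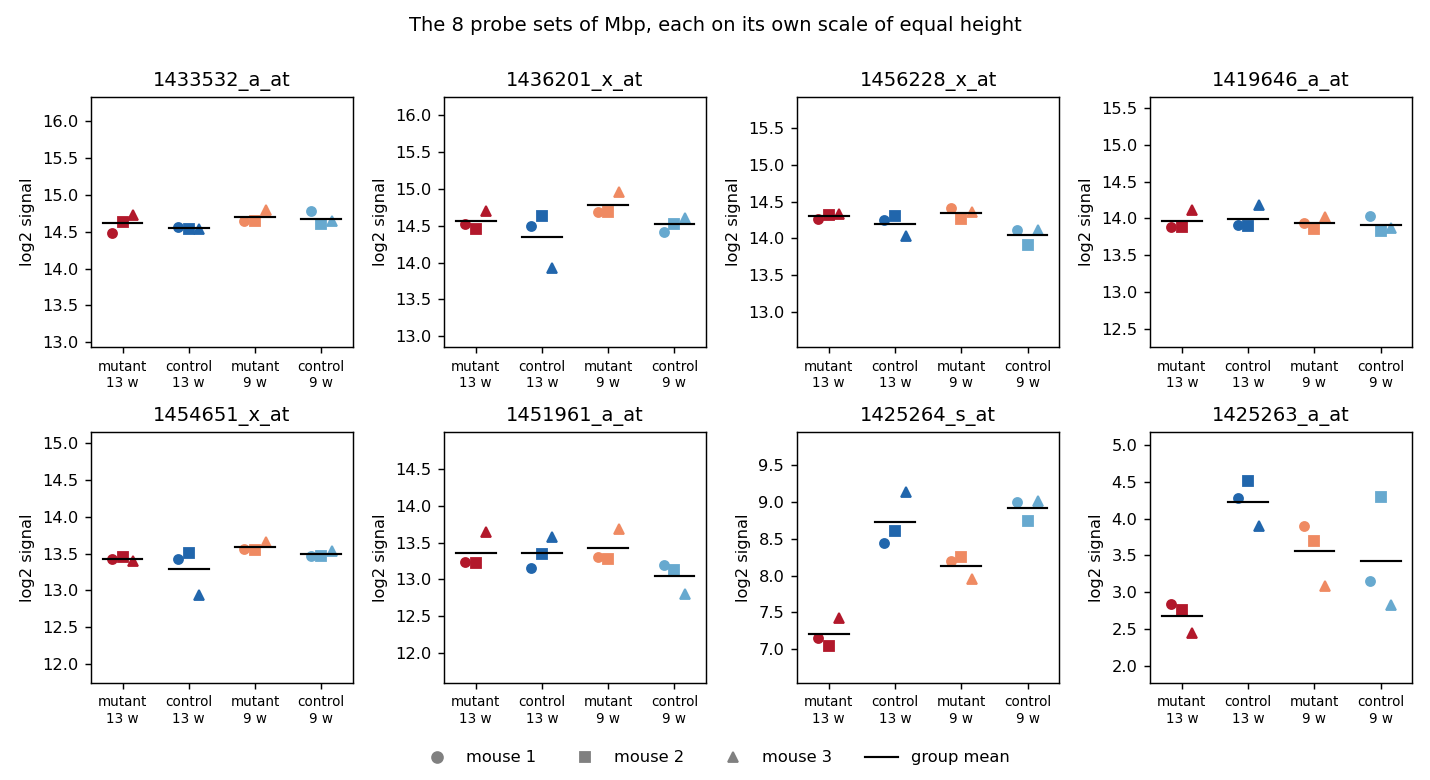
Level (log2, GCRMA) of the 8 probe sets of Mbp in each mouse, brightest first, with mutants left of controls at each age. The 6 brighter probe sets overlap between groups at 13 weeks, while 1425264_s_at and 1425263_a_at are lower in all 3 mutants than in all 3 controls.

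The 3 probe sets of Cnp disagreed in sign and in which mice were high. Probe set 1418980_a_at measured 10.63, 10.48 and 10.94 (log2) in the 13-week mutants, against 10.47, 10.39 and 11.88 in the controls, and differed by -0.23 ± 0.34. Control mouse 3 was the highest mouse here and the lowest on the brightest probe set. Probe set 1449296_a_at measured 9.94, 9.89 and 10.35 in the 13-week mutants, against 10.03, 9.62 and 9.98 in the controls, and differed by 0.18 ± 0.19. Between the controls' ages (13 minus 9 weeks), 1418980_a_at differed by 0.16 and 1449296_a_at by 0.23, against -0.66 on the brightest probe set. The brightest probe set has the suffix _x_at, which marks probes that may bind other transcripts.

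For Ugt8a, probe set 1419064_a_at measured 7.20, 7.34 and 7.58 (log2) in the 13-week mutants, against 6.77, 6.05 and 7.48 in the controls. Control mouse 3 lay among the mutants, and the difference of 0.61 ± 0.33 had the same direction as that of the brightest probe set but did not pass (limma adjusted p = 0.154). At 9 weeks it measured 6.88, 6.54 and 6.07 in mutants, against 6.24, 5.75 and 5.69 in controls, a difference of 0.60 ± 0.33 (adjusted p = 0.330). The Ugt8a call at 13 weeks thus rests on 1 of its 2 probe sets. Between the ages (13 minus 9 weeks), 1419064_a_at differed by 0.88 in the mutants (adjusted p = 0.0624) and by 0.87 in the controls (adjusted p = 0.211). The brightest probe set differed by 0.39 in the mutants and by -0.34 in the controls.

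For Mobp, probe set 1421010_at measured 12.80, 13.12 and 12.99 (log2) in the 13-week mutants, against 12.86, 12.90 and 12.10 in the controls. It differed by 0.35, opposite in sign to the brightest one, with control mouse 3 lowest. At 9 weeks it measured 13.06, 13.02 and 13.16 in mutants, against 12.76, 12.32 and 12.17 in controls. All mutants lay above all controls there, and the difference was 0.66 (limma adjusted p = 0.129). Probe set 1450088_a_at differed by -0.28 at 13 weeks and by 0.53 at 9 weeks (adjusted p = 0.246). All 3 probe sets of Mobp were thus above 0 at 9 weeks without passing, and they split at 13 weeks. The other probe set of Mal, 1432558_a_at, differed by -0.03 at 13 weeks and 0.14 at 9 weeks.

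**Figure D4:**
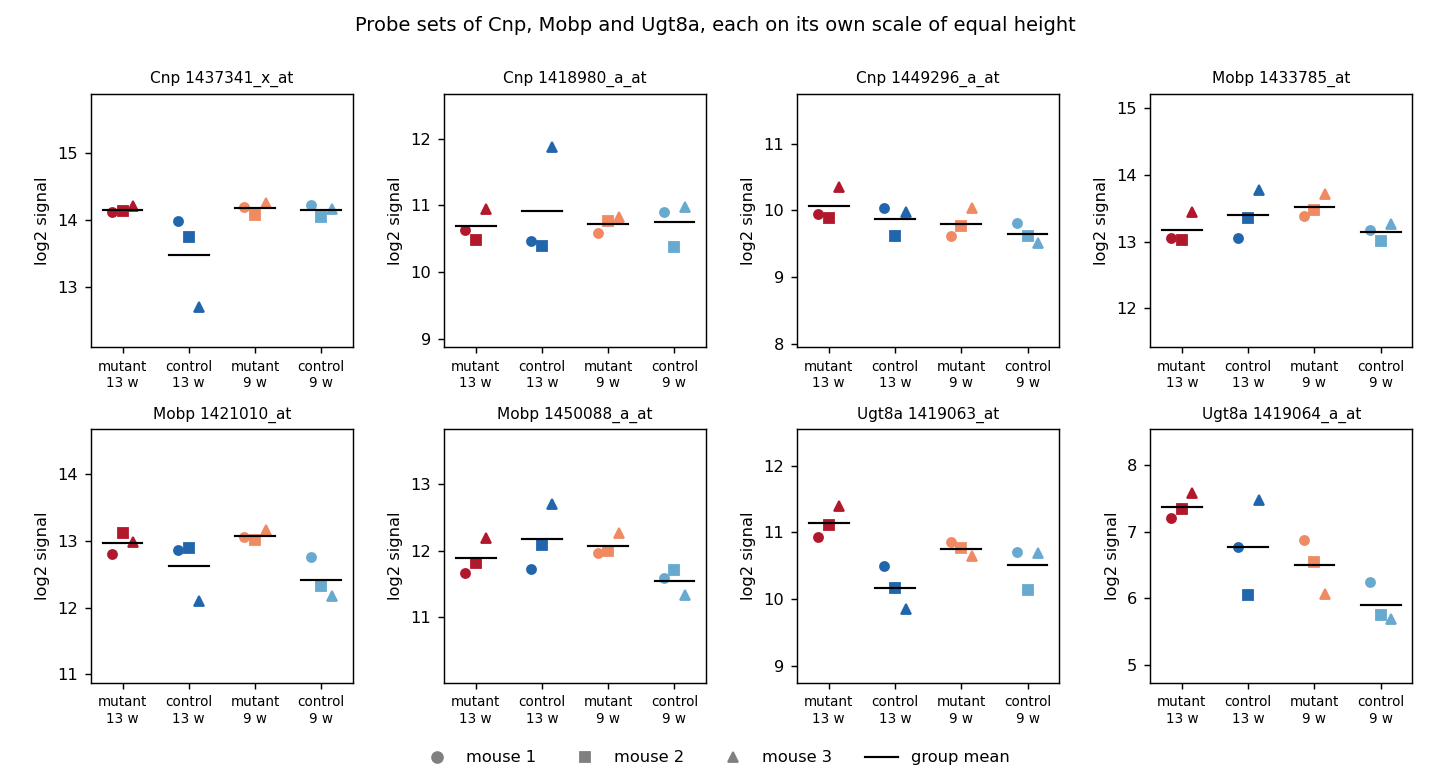
Level (log2, GCRMA) of each probe set of Cnp, Mobp and Ugt8a in each mouse, with mutants left of controls at each age. On Cnp 1437341_x_at control mouse 3 at 13 weeks is the lowest point (12.70) and on Cnp 1418980_a_at the highest (11.88).

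The members did not move as 1 block over the mice. With each member centred on its mean over the 12 arrays, their average was 0.14, 0.22 and 0.38 (log2) in the 13-week mutants, against -0.18, -0.29 and -0.12 in the 13-week controls. At 9 weeks it was 0.02, 0.04 and 0.21 in mutants, against 0.05, -0.37 and -0.11 in controls, so the 9-week groups overlapped. Pearson's r of a member with the average of the other 8 ran from 0.09 for Mobp and 0.17 for Cnp to 0.63 for Cldn11 and 0.75 for Ugt8a. These r values are over 12 arrays that share 4 groups, and are a description. The genes outside the list whose levels went most closely with the members' average were Nfe2l3 (r = 0.96), Fah (0.93), Limd1 (0.92), Nkain1 (0.91) and Cers2 (0.90). After the group means were taken out, Myo1d (0.95), Arhgap23, Golga7, Nfe2l3 and Srgap3 (0.93 each) came first.

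Other genes of the mature oligodendrocyte and its myelin are given as the setting of the members. Of 27 such genes listed, 19 had a probe set and all 19 lay above the filter. At 13 weeks 8 were higher and 1 was lower in the mutants, with a median difference of 0.53, and at 9 weeks 2 were higher. Over all genes tested, 23.4% were higher and 21.9% lower at 13 weeks, and 2.02% were higher at 9 weeks. Without control mouse 3 at 13 weeks, 10 were higher and 0 lower at that age, and with any other mouse left out 6 to 9 were higher. This list was put together with earlier results of these data known.

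Klk6, a secreted protease of oligodendrocytes, stood far above the members in size of change. It measured 12.02, 11.89 and 11.50 (log2) in the 13-week mutants, against 6.85, 7.28 and 7.82 in the controls. The groups were more than 3 log2 apart at their nearest mice, with a difference of 4.49 ± 0.28 (limma adjusted p = 1.8e-07), while at 9 weeks the difference was 0.08 ± 0.28 (adjusted p = 0.917). Apod, a lipid-binding apolipoprotein, rose at 13 weeks by 2.18 ± 0.14 (adjusted p = 2.02e-07), with 14.64, 14.63 and 14.49 in mutants against 12.31, 12.46 and 12.44 in controls. Cryab, a small heat shock protein, rose by 1.39 ± 0.20 (adjusted p = 0.000169).

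Ndrg1, a protein of the oligodendrocyte cytoplasm that is also made by other cells, rose at 13 weeks by 1.08 ± 0.17 (limma adjusted p = 0.000297) and at 9 weeks by 0.75 ± 0.17 (adjusted p = 0.0310). The second 9-week call was Septin4, a septin of the cytoskeleton, with 0.97 ± 0.19 (adjusted p = 0.0182) at 9 weeks and 0.16 at 13 weeks (adjusted p = 0.494). With 1 mouse left out in turn, Ndrg1 passed at 9 weeks in 7 of 12 fits and Septin4 in 10 of 12. The 1 gene lower at 13 weeks was Efhd1 (-0.49 ± 0.18, adjusted p = 0.0423), which passed in 3 of 12 such fits and was -0.39 without control mouse 3 at 13 weeks.

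Genes that make or break down the sphingolipids of myelin, the pathway to which Ugt8a belongs, were split. Of 11 measured, 4 were higher and 1 lower at 13 weeks, with a median of 0.43, beside 23.4% of all genes higher and 21.9% lower. In limma 0 passed at 9 weeks, where 2 had an unadjusted p under 0.05. Cers2, the ceramide synthase for very long acyl chains, rose by 1.02 ± 0.17 (adjusted p = 0.000374). The 13-week mutants measured 8.95, 9.10 and 8.90 (log2) for Cers2, against 8.14, 7.79 and 7.95 in controls, with no overlap. Sptlc2, a subunit of the enzyme that begins sphingolipid synthesis, rose by 0.70 (adjusted p = 0.0108). Asah1, a ceramidase of the lysosome, and Galc, which breaks down galactosylceramide, rose by 1.48 (adjusted p = 0.0132) and 0.50 (adjusted p = 0.0149), so that the 4 included degrading as well as synthetic enzymes. For Asah1 control mouse 3 measured 7.13, against 9.10 and 9.20 in the other controls, and without this mouse the difference was 0.81 and still passed (adjusted p = 0.00126). Ugcg, which makes glucosylceramide from the same ceramide, fell by 0.88 (adjusted p = 0.00884). Fa2h, which hydroxylates the fatty acid of myelin galactolipids, differed by 0.02 (adjusted p = 0.952).

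Cholesterol is a lipid that myelin needs in quantity but that all cells make, and most genes of its synthesis did not pass. Of 15 measured, 0 were higher and 3 lower at 13 weeks, a share lower near the 21.9% of all genes, with a median of -0.11, and with 1 mouse left out 1 to 4 were lower. In limma 0 passed at 9 weeks, where 5 had an unadjusted p under 0.05, all of them lower. Fdps, which makes farnesyl diphosphate, fell by 0.78 (adjusted p = 0.00852), and Dhcr7, which carries out the last step to cholesterol, fell by 0.88 (adjusted p = 0.0191). Without control mouse 3 at 13 weeks Dhcr7 fell by 0.49 at 13 weeks (adjusted p = 0.0150). At 9 weeks its difference was -0.67 with and without that mouse. It passed without the mouse (adjusted p = 0.00730, against 0.177 with it), which enters at 9 weeks only through the shared spread. Mvd, of the steps before it, fell by 0.99 (adjusted p = 0.0491), passed in 3 of the 12 fits that left out 1 mouse, and differed by -0.44 without control mouse 3.

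The transcription factors of the oligodendrocyte lineage mostly did not pass. Of 7 measured, 1 was higher at 13 weeks, beside 23.4% of all genes. This was Zeb2 (0.94 ± 0.32, limma adjusted p = 0.0305), which microglia also express. It passed in 8 of the 12 fits that left out 1 mouse. Without control mouse 3 its difference was 0.61 (adjusted p = 0.0979). Olig2, which sets the lineage, measured 8.30, 8.09 and 8.53 (log2) in the 13-week mutants, against 7.71, 7.93 and 8.09 in controls (0.40 ± 0.17, adjusted p = 0.0696). Olig1 differed by 0.38 ± 0.18 (adjusted p = 0.0977) and Sox10, which drives myelin genes, by 0.29 ± 0.40 (adjusted p = 0.587). None passed in limma at 9 weeks, and 0 had an unadjusted p under 0.05.

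Markers of oligodendrocyte precursors were higher throughout at 13 weeks. Of 10 listed, 7 had a probe set and 6 lay above the filter, with C1ql1 below it on all arrays. These 6 were higher at 13 weeks with a median of 1.66, beside 23.4% of all genes higher. In limma 0 passed at 9 weeks, and 0 had an unadjusted p under 0.05. Vcan, a matrix proteoglycan, rose by 2.83 ± 0.41 (adjusted p = 0.000186), with 6.88, 6.84 and 6.47 (log2) in the 13-week mutants against 4.55, 3.86 and 3.30 in controls. The value of 3.30 lies below the filter level and 3.86 is close to it, so the size of this change is uncertain too. Ptprz1, a receptor phosphatase that astrocytes also carry, rose by 1.92 ± 0.24 (adjusted p = 5.43e-05). Pdgfra, the receptor for platelet-derived growth factor on precursors, rose by 1.64 (adjusted p = 0.00501), and by 1.01 without control mouse 3. At 9 weeks its difference was -0.48 with and without that mouse. It passed without the mouse (adjusted p = 0.0211, against 0.530 with it), which enters at 9 weeks only through the shared spread. Cspg4, the NG2 proteoglycan, rose by 1.02 (adjusted p = 0.00235). It measured 4.39, 5.34 and 4.61 in the 13-week mutants, against 3.76, 3.81 and 3.70 in controls. These control values are close to the filter level of 3.51 to 3.81, so the size of the change is uncertain.

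At the node of Ranvier and beside it, on the axon, genes went mostly the other way. Of 7 above the filter, 5 were lower and 1 higher at 13 weeks, with a median of -0.67, beside 21.9% of all genes lower and 23.4% higher. The number lower was 2 without control mouse 1 or without mutant mouse 1 or 2 at 13 weeks. Sptbn4, the spectrin of the node, fell by 2.17 ± 0.31 (limma adjusted p = 0.00015) and Scn8a, its sodium channel, fell by 1.53 ± 0.30 (adjusted p = 0.00151). Nrcam, an adhesion molecule of nodes that glia and neurons both make, rose by 0.73 ± 0.19 (adjusted p = 0.00763). None of the 7 passed in limma at 9 weeks, where 2 had an unadjusted p under 0.05, both lower.

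Schwann cells, which make the myelin of peripheral nerves, were checked since they share several members. Of 8 markers listed, 4 had a probe set and 3 of these lay above the filter, while Dhh was below it on all arrays. Pmp22 rose by 1.54 ± 0.22 at 13 weeks (limma adjusted p = 0.000144) and Gjb1, which oligodendrocytes also express, by 0.65 ± 0.23 (adjusted p = 0.0393), though Gjb1 passed in 6 of the 12 fits that left out 1 mouse. Egr2, a transcription factor of Schwann cells, did not pass at 13 weeks (-0.34 ± 0.71, adjusted p = 0.719). The defining markers Prx and Pmp2 were not analysed here.

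**Figure D5:**
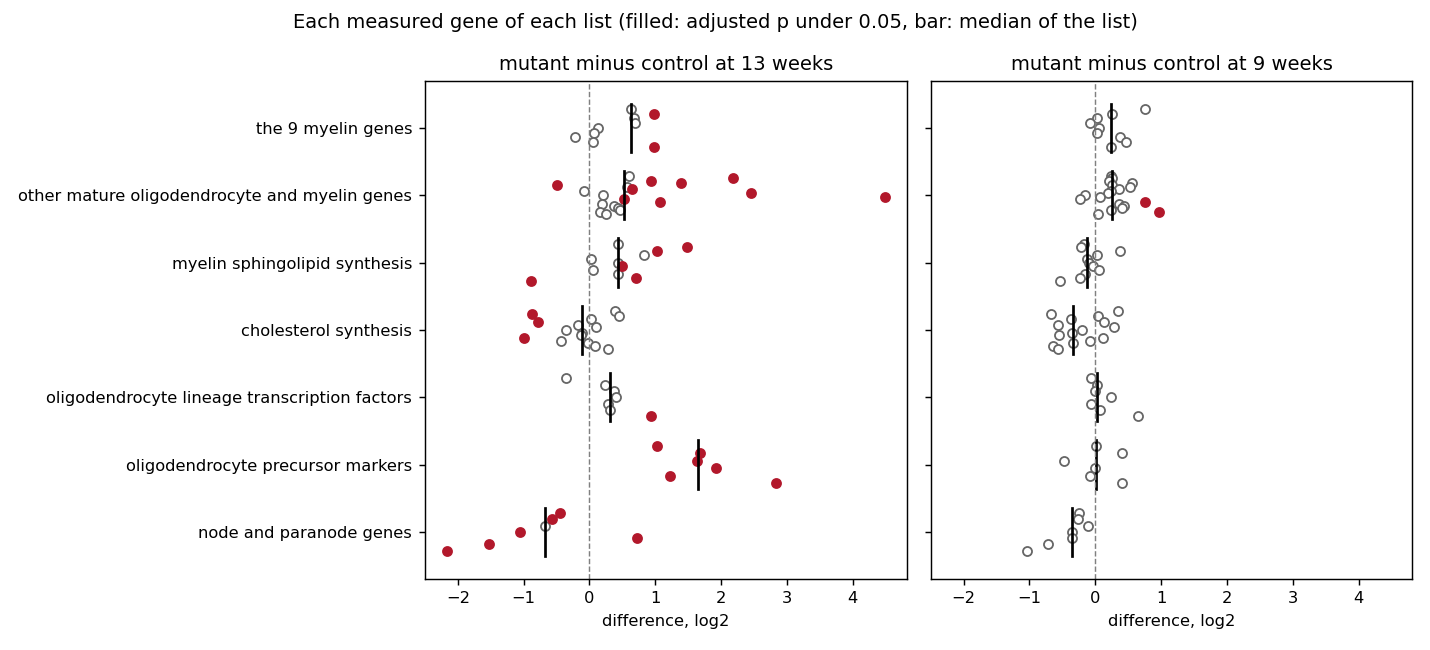
Differences between mutants and controls (log2, mutant minus control) at 13 and at 9 weeks, 1 point per gene with the median of each list. Shown are the members, the other myelin, sphingolipid, cholesterol, lineage factor and precursor genes, and the genes of the node. At 13 weeks the members' median is 0.63, against 1.66 for precursor markers and -0.67 for node genes.

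Markers of other cells moved at 13 weeks together with the members' differences. Over all genes tested, 23.4% were higher and 21.9% lower at 13 weeks, and 2.98% were lower at 9 weeks. Of 12 astrocyte markers, 11 were higher and 0 lower (median 1.56), with array means of 11.22 to 11.42 (log2) in mutants and 9.08 to 9.22 in controls. All 11 microglia markers measured were higher (median 2.60), with array means of 11 to 11.43 in mutants and 8.29 to 8.63 in controls. Of 15 medium spiny neuron markers, 14 were lower and 0 higher (median -2.36), with array means of 8.04 to 8.88 in mutants and 10.49 to 11.09 in controls. Of 9 endothelial markers with a probe set, only 5 lay above the filter, and Vwf was above it on only 4 arrays, 3 of them the 13-week mutants. Cldn5, a tight junction protein of the vessel wall on which all arrays were above the filter, was higher by 0.66 (adjusted p = 0.0278). The array mean of the 9 members ran from 11.80 to 12.04 in the 13-week mutants and from 11.37 to 11.54 in controls. None of these mean levels overlapped between the groups, and the part of the other cell types in the members' differences was not tested. At 9 weeks 4 medium spiny neuron markers were lower (median -0.57), and 0 astrocyte and 0 microglia markers passed in limma, with 2 and 0 at an unadjusted p under 0.05. Leaving out 1 mouse gave 0 to 5 medium spiny neuron markers lower at 9 weeks.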

How the data were processed

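The deposited table holds GCRMA values on a log2 scale, which the authors made from Affymetrix arrays, 1 per mouse, per the submitters' processing notes. The version of GCRMA is not given in the sources used here. Total RNA was extracted on columns, per the labels' protocols. The table has 22690 probe sets. Apart from 64 control probe sets, 20380 carried 1 gene symbol in GEO's platform annotation, 691 several and 1555 none, and only those with 1 were used. Array medians ran from 5.29 to 5.52, and the number of arrays limits the precision.

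Values were used as deposited. Each gene was read through its brightest probe set by mean, and 8253 of 12393 genes lay above the 40th percentile of their array (3.51 to 3.81) in at least 3 arrays. One limma model (version 3.58.1 in R 4.3.3, with 8 residual degrees of freedom) covered the 4 groups, and two-sided p-values were adjusted by Benjamini-Hochberg over all genes. Nothing in the labels beyond the word biological replicate says how mice were related. The smallest mean difference between 2 arrays was 0.145, so no 2 columns held the same values.

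The members and lists were chosen with earlier results of these data known. The rule for named genes was all 9 members, Rrn3, up to 4 genes with the smallest p per list described, and the 5 genes nearest to the members' average by each measure of likeness. Efhd1, Galc, Pdgfra, C1ql1, Fa2h, Sox10, Slc17a6 and Calb2 fall outside it and were chosen after their values were seen. Deviations of mice with the same number in the labels correlated by -0.12 to 0.32 (median 0.08, against -0.03 for other pairs). Since not every pair was over 0.1, the numbers were not taken as pairs, although the members' average lay below its group mean in mouse 2 and above it in mouse 3 of all 4 groups. On simulated data of 8253 genes, the 13-week comparison recovered 51% of changes of 1 log2 and 92% of those of 2. The interaction recovered 26% and 88%. Far fewer genes were changed in the simulation than passed in the data at 13 weeks (45.4%). The adjusted threshold depends on that share, so these figures are not the recovery in the data. Alternatives covered the filter, probe set choice, scaling, array weights, a term for sex and each mouse left out.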

Additional observations from a re-analysis of the deposited data

Results flagged for a closer look

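For these genes the mutant effect at 13 weeks differed from that at 9 weeks by the interaction test in limma. None is a member read through its brightest probe set.

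In the oligodendrocyte list the change of the mutant effect was 4.41 (log2) for Klk6 (adjusted p = 1.04e-05) and 1.93 for Apod (adjusted p = 2.67e-05). Among precursor markers it was 2.42 for Vcan (adjusted p = 0.0137), 1.92 for Ptprz1 (adjusted p = 0.00201), 1.3 for Sox6 (adjusted p = 0.0345) and 1.01 for Cspg4 (adjusted p = 0.0386). For Pdgfra, chosen after its values were seen, it was 2.12 (adjusted p = 0.0197). Cspg4 read close to the filter level in the controls, and so did Vcan in some of them. For lipid synthesis it was 0.94 for Sptlc2 (adjusted p = 0.0320) and -0.91 for Fdps (adjusted p = 0.0475). It was 1.43 for Pmp22 (adjusted p = 0.00760) and 1.08 for Nrcam (adjusted p = 0.0143). Nrcam was higher in mutants at 13 weeks and had a value of -0.36 at 9 weeks. With 1 mouse left out in turn, this call held in 1 of 12 fits for Fdps and 3 for Cspg4. It held in 5 for Sptlc2, 6 for Sox6, 11 for Pdgfra and all 12 for the other genes named so far. For the Mbp probe set 1425263_a_at the change was -1.68 (adjusted p = 0.0343), held in 3 of 12 such fits.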

How the results depend on the processing

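Over 26 alternatives, 1161 values were recomputed: 1127 stayed on their side of the threshold without reversing by more than 1 SE, 3 lost and 25 gained a call, and 6 reversed. Among those not counted as reversed, 47 changed sign within 1 SE of 0. Ugt8a and Cldn11 passed at 13 weeks under all of them. Members passing at 13 weeks numbered 2, against 4 with array weights, 4 with a sex term, 3 with the mean of probe sets (Mbp, lower), 3 with a trended and robust prior (Cnp), 3 without both doubted arrays (Mag) and 2 to 3 with 1 mouse left out. The doubted arrays were control mouse 3 at 13 weeks and mutant mouse 3 at 9 weeks, chosen after seeing the data. At 9 weeks array weights called 2. The interaction called 3 with array weights, 2 without both doubted arrays and 0 to 2 with 1 mouse left out. Between the mutants' ages 1 passed, against 3 with the mean of probe sets, 3 with array weights, 2 with only the groups compared, 0 at a threshold of 0.01, 0 with a sex term, 2 without both arrays and 0 to 2 with 1 mouse left out. Reversed were Mbp at 13 weeks (-0.32) and for the interaction (-0.38), and Ugt8a between the controls' ages (0.27), with the mean of probe sets. Between the controls' ages Cldn11 (-0.16) and Aspa (0.22) reversed with array weights, and Aspa (0.23) without both arrays. The Mbp mean takes in its 2 dimmer probe sets, which differed by -1.52 and -1.55 at 13 weeks. Causes beyond this were not tested. The replicate block called 2, 0, 0, 1 and 0 members in the 5 comparisons, as without it, with 3840 against 3744 genes at 13 weeks, and same-numbered mice had a median correlation of 0.08. Over all genes, 413 passed at 9 weeks, against 2757 with array weights and 62 to 1361 with 1 mouse left out. The interaction was not run with only the groups compared.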
